A study of Caenorhabditis briggsae with 12 samples.

Results

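Among the 23169 genes counted in adult Caenorhabditis briggsae hermaphrodites, 108 genes (0.466%) took at least 1000 of every 1000000 counts (1000 CPM) on average over 12 libraries, and these most abundant transcripts are described here by day and by library. The library total behind each CPM was taken over all genes. The measured levels themselves chose the genes, so their height and their share of all counts are given as descriptions, with no test. Just inside the limit lay WBGene00038931 at 1001 CPM and WBGene00041507 at 1000.2 CPM, and just outside it lay WBGene00030492 at 986 CPM and WBGene00040685 at 983 CPM. CPM is not divided by transcript length, so a gene that takes more counts than another need not have more RNA molecules, and levels are compared here only for the same gene or genes between libraries.

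The animals were whole adult hermaphrodites of AF16, a wild-type strain of C. briggsae, a self-fertile relative of C. elegans, sampled on adult days 1, 3, 6 and 9, each day with 3 libraries. They were fed the bacterium OP50, and progeny were removed by settling and picking. RNA was extracted with Trizol and libraries were made with TruSeq v2, a kit that selects polyadenylated RNA. The labels name no treatment or mutation in any group, and they leave unsaid whether the 3 libraries of a day are separate cultures. The p-values below therefore reflect only how far these samples differ from each other, and that spread may be technical.

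In most animal tissues a small set of genes supplies a large part of the polyadenylated RNA, and the size of that set and the genes in it change with the work of the tissues. In adult nematode hermaphrodites such as C. elegans, the abundant messages known from earlier work include those for yolk proteins, which the intestine makes and the oocytes take up, those for ribosomal proteins and translation factors, and those for muscle and cuticle proteins. The deposited table gives identifiers without names, and none of them matched the 22727 genes of the C. briggsae reference table (assembly CB4), so no member is assigned here to any of these classes and each is called by its identifier. In whole animals, fewer cells of a type and less RNA per cell cannot be told apart, and because CPM is a share, a gene that takes more of a library leaves less for the others.

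Library totals ran between 14276540 counts (day 9, replicate 1) and 33732477 counts (day 1, replicate 1), and every member had at least 592 counts in every library. Counting error was therefore small: the members' median coefficient of variation (CV) between the 3 libraries of a day was 4.43% at day 1, 7.75% at day 3, 5.18% at day 6 and 20.3% at day 9, where counting alone gives 0.442% to 0.516%. The wide spread at day 9 came with 1 library. Day 9 replicate 1 lay below both other day 9 libraries for 75 members, above both for 32 and between them for 1, and the median CV of day 9 was 8.30% without it. The wide spread was not particular to the members. The median SD of log2 CPM at day 9, scaled to set the bulk of genes to a common level, was 0.264 for members and 0.451 for all tested genes. Without replicate 1 it was 0.128 and 0.107. Day 9 results are therefore also given by library or without that library.

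The members held between 20.1% and 28.0% of all counts, most at day 3 and least at day 9. Their share was 23.8, 25.2 and 24.6% in the 3 day 1 libraries, 28.0, 27.3 and 27.5% at day 3, 24.4, 24.4 and 26.8% at day 6 and 20.1, 20.2 and 21.2% at day 9. The day means were 24.6 ± 0.675%, 27.6 ± 0.355%, 25.2 ± 1.36% and 20.5 ± 0.591% (SD over 3 libraries), and the day 9 mean was 20.7% without replicate 1. All 3 day 3 libraries were above all others, and all 3 day 9 libraries were below all others. The number of genes needed to reach 50% of the counts, taken from the most counted gene down, was 601, 533 and 561 at day 1, 529, 548 and 544 at day 3, 645, 644 and 574 at day 6 and 718, 740 and 664 at day 9. Day 9 libraries thus spread their counts over more genes than any earlier library.

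The 3 genes with the highest mean CPM, WBGene00024796, WBGene00035047 and WBGene00034777, varied widely between days. Together their share of each library was 4.28, 4.36 and 4.60% at day 1, 10.1, 8.74 and 7.96% at day 3, 6.84, 6.43 and 8.79% at day 6 and 2.30, 2.60 and 2.52% at day 9. When their counts were taken out of the libraries, the other 105 members held 21.1 ± 0.670% at day 1, 20.5 ± 0.653% at day 3, 19.3 ± 0.429% at day 6 and 18.5 ± 0.570% at day 9 (SD over 3 libraries). On that measure the day 3 mean was below the day 1 mean by less than 1 SD, and day 9 had the lowest mean. This setting was chosen after seeing the data.

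**Figure D1:**
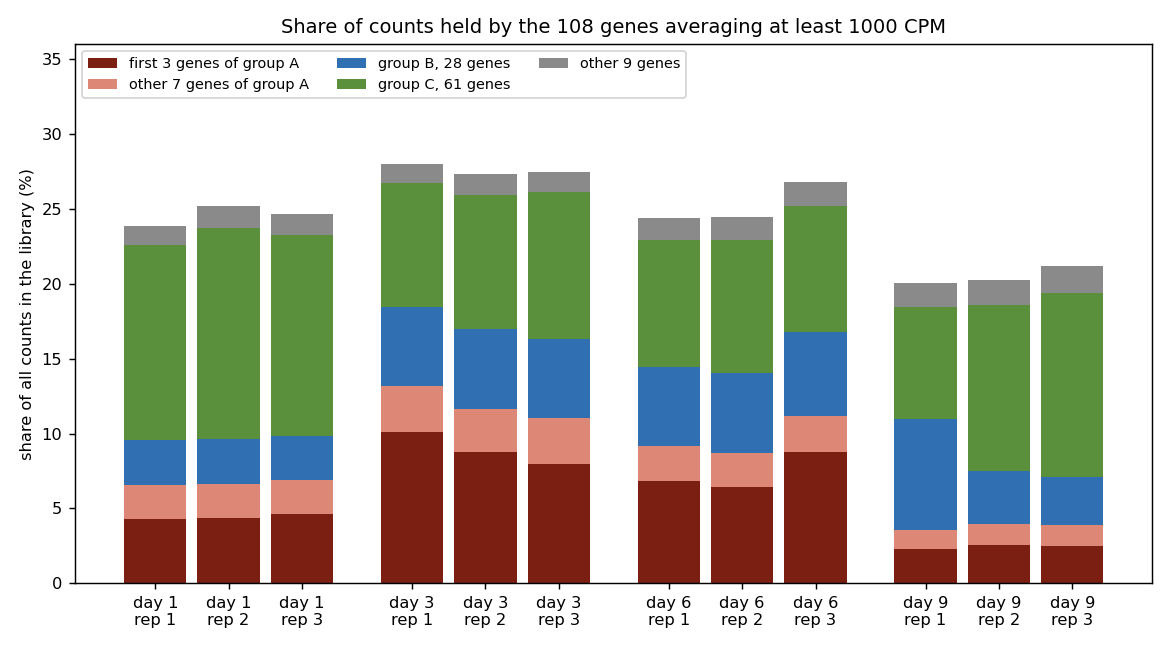
Each bar is 1 library and shows the share of all its counts, in percent, taken by the 108 genes, stacked by the first 3 genes, the other 7 genes of group A, group B, group C and the other 9 genes, where the groups join genes of like course over the libraries. The day 3 bars reach 27.3% to 28.0% and the day 9 bars 20.1% to 21.2%, and the segment of the first 3 genes varies most with day.

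WBGene00024796 took the most counts of all genes on every one of the 4 days. It had 20939, 21539 and 22786 CPM at day 1, 40601, 35219 and 31989.9 CPM at day 3, 27302, 25783 and 35172 CPM at day 6 and 12067, 12491 and 12081 CPM at day 9. The day 9 libraries were the lowest of the 12 and the day 3 and day 6 libraries the highest, with no overlap between day 3 and day 1 or between day 9 and any other day. With libraries scaled by TMM, edgeR's default factors that set the bulk of genes to a common level, and p-values adjusted over all tested genes, its log2 fold change was 1.01 ± 0.15 (SE, adjusted p = 0.00131) at day 3 against day 1, -1.45 ± 0.15 (SE, adjusted p = 0.000548) at day 9 against day 6 and -0.89 ± 0.15 (SE, adjusted p = 0.00424) at day 9 against day 1, each from edgeR's quasi-likelihood test. At day 6 against day 3 the log2 fold change was -0.44 and did not pass the edgeR test (adjusted p = 0.175). It did pass without day 9 replicate 1, a library of neither day that enters the common estimate of the spread (-0.445, edgeR adjusted p = 0.0394).

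WBGene00035047 had 13302, 13108 and 13938 CPM at day 1, 36228, 31451 and 29209 CPM at day 3, 24813, 23406 and 31459.8 CPM at day 6 and 7879, 8689 and 8364 CPM at day 9. It had the same order of days as WBGene00024796 but a wider swing, with an edgeR log2 fold change of 1.55 ± 0.14 (SE, adjusted p = 0.000231) at day 3 against day 1 and -1.86 ± 0.14 (SE, adjusted p = 0.000108) at day 9 against day 6. WBGene00034777 had 8595, 8992 and 9278 CPM at day 1, 24304, 20772 and 18446 CPM at day 3, 16328, 15160.0 and 21263 CPM at day 6 and 3099, 4778 and 4722 CPM at day 9. Its edgeR log2 fold change was 1.52 ± 0.19 (SE, adjusted p = 0.000781) at day 3 against day 1 and -2.25 ± 0.20 (SE, adjusted p = 0.000226) at day 9 against day 6. Its day 9 replicate 1 lay below the 2 other day 9 libraries, which were close to each other.

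The 3 genes moved together over the 12 libraries, with Pearson correlations of log2 CPM of 0.98 for WBGene00024796 with WBGene00035047, 0.98 for WBGene00024796 with WBGene00034777 and 0.99 for WBGene00035047 with WBGene00034777, as descriptions over libraries that share days and preparation. They did not move in a constant ratio. The counts of WBGene00035047 divided by those of WBGene00024796 were 0.635, 0.609 and 0.612 at day 1, 0.892, 0.893 and 0.913 at day 3, 0.909, 0.908 and 0.894 at day 6 and 0.653, 0.696 and 0.692 at day 9. This ratio, which no library total or scaling can alter, was higher at days 3 and 6 than at days 1 and 9, with no overlap. The counts of WBGene00034777 divided by those of WBGene00024796 were 0.410, 0.417 and 0.407 at day 1, 0.599, 0.590 and 0.577 at day 3, 0.598, 0.588 and 0.605 at day 6 and 0.257, 0.383 and 0.391 at day 9, with day 9 replicate 1 the lowest of all.

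The next 2 genes by mean CPM, WBGene00034800 and WBGene00000365, were also high at day 3 and low at day 9. WBGene00034800 had 7650.3, 7619.5 and 8097 CPM at day 1, 12049, 10602 and 10989 CPM at day 3, 7329.6, 6836 and 7636 CPM at day 6 and 2438, 2505 and 2592 CPM at day 9. It was the single member called at day 6 against day 3, where it fell by 0.79 on the log2 scale (SE 0.09, edgeR adjusted p = 0.00225), and its edgeR log2 fold change was -1.71 ± 0.10 (SE, adjusted p = 2.39e-05) at day 9 against day 6. WBGene00000365 had 6518, 5886 and 6316 CPM at day 1, 8397, 7519.6 and 8488 CPM at day 3, 5931, 5535 and 5941 CPM at day 6 and 3257, 2314 and 2251 CPM at day 9. Its edgeR log2 fold change was 0.67 ± 0.16 (SE, adjusted p = 0.00683) at day 3 against day 1. The call was lost when replicate 2 of day 3 (adjusted p = 0.0734), replicate 1 of day 6 (adjusted p = 0.0688) or replicate 2 of day 6 (adjusted p = 0.0658) was left out. With no low-count filter the call of WBGene00000365 was lost too (edgeR adjusted p = 0.0608). At day 9 against day 6 its edgeR log2 fold change was -1.32 ± 0.16 (SE, adjusted p = 0.00107), and that call was lost when only the libraries of the 2 days were fitted (adjusted p = 0.0604). Without day 9 replicate 1 the edgeR log2 fold changes at day 9 against day 6 were -1.48 for WBGene00024796, -1.86 for WBGene00035047, -2.11 for WBGene00034777, -1.73 for WBGene00034800 and -1.56 for WBGene00000365.

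**Figure D2:**
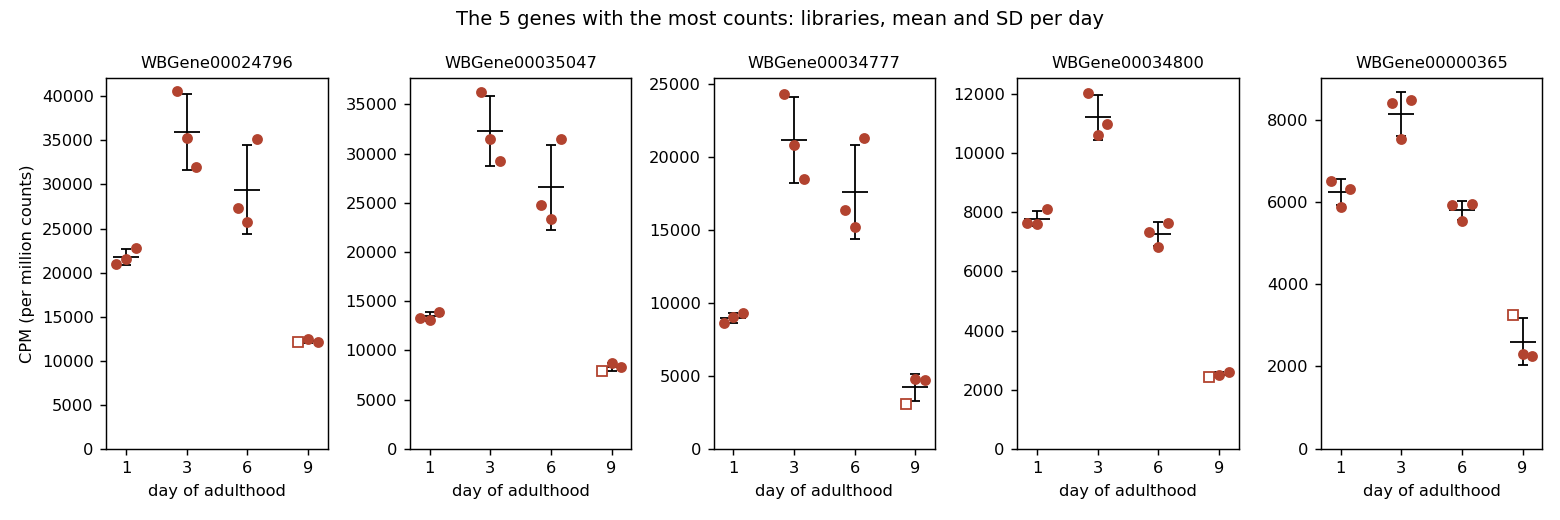
Points are CPM in single libraries of the 5 genes with the highest means, by day of adulthood, with the mean and SD of 3 libraries in black and day 9 replicate 1 as an open square; each panel has its own axis from 0. In all 5 panels the day 3 libraries lie above the day 1 libraries and the day 9 libraries lie below all others.

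The genes ranked 6 to 10 by mean CPM varied less, with a ratio of the highest to the lowest of the 12 libraries between 1.36 and 1.75, where the first 5 had ratios between 3.36 and 7.84. WBGene00036738 averaged 5579 ± 34.5 CPM at day 1, 5415 ± 66.2 CPM at day 3, 4608 ± 167 CPM at day 6 and 5721 ± 663 CPM at day 9 (SD, n = 3). Its edgeR log2 fold change at day 3 against day 1 was 0.24 (adjusted p = 0.0461), and its sign depended on the scaling, being -0.04 with library totals alone. The call was lost without any 1 of the 12 libraries other than day 6 replicate 3 and day 9 replicate 1 (adjusted p between 0.0649 and 0.771). WBGene00039339 averaged 3187 ± 198, 3229 ± 115, 3575 ± 778 and 4487 ± 895 CPM over the 4 days, WBGene00040044 4058 ± 277, 3279.7 ± 192, 2934 ± 91.6 and 3877 ± 527 CPM, and WBGene00026442 3651 ± 193, 3043 ± 198, 2762 ± 78.9 and 3120.0 ± 771 CPM. WBGene00023842 averaged 2946 ± 89.0, 3852 ± 95.6, 3469 ± 74.2 and 2816 ± 316 CPM over the 4 days and fell at day 9 against day 6 (edgeR log2 fold change -0.48 ± 0.08 SE, adjusted p = 0.00361), a call lost when only those 2 days were fitted (adjusted p = 0.109).

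Over the whole set, most members stayed within a narrow range. The highest library was a median of 1.64 times the lowest library for the same gene, with a range of 1.20 to 122.7. The ratio was at most 1.25 for 1 member, between 1.25 and 1.5 for 23, between 1.5 and 2 for 42, between 2 and 4 for 24, between 4 and 10 for 10 and over 10 for 8. The steadiest member was WBGene00041491, with a CV of 6.09% over the 12 libraries and a highest to lowest ratio of 1.20, and the next was WBGene00027021 with a CV of 8.62%. WBGene00041491 averaged 1532 ± 37.1, 1645 ± 58.2, 1688 ± 143 and 1631 ± 95.7 CPM over days 1, 3, 6 and 9 (SD, n = 3), so that its libraries lay close together on all days. With TMM its log2 fold change at day 3 against day 1 was 0.38 (edgeR adjusted p = 0.00362), and it was 0.10 with library totals alone (adjusted p = 0.341), so the call rested on the scaling. It was also lost when replicate 2 of day 3, replicate 1 or 2 of day 6 or replicate 3 of day 9 was left out (edgeR adjusted p between 0.0852 and 0.178).

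The members' courses over the libraries fell into 3 groups. Members were joined by average linkage on 1 minus the correlation of log2 CPM over the 12 libraries and separated at a distance of 0.4, which gave group A of 10 genes, group B of 28, group C of 61 and 9 genes in smaller groups. The groups were formed on the same values that are described for them, so the differences between them are no test. The median correlation between members was 0.82 within A, 0.88 within B and 0.85 within C, and it was -0.81 between B and C. Group B rested on day 9 replicate 1: without that library the same procedure gave 1 group of 35 genes and 1 of 54, with 53 genes of group C in the larger, and B no longer formed a group of its own. With libraries scaled by TMM the groups held 20, 22 and 43 genes, of which 10, 21 and 43 were in A, B and C. Both settings were chosen after seeing the data.

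Group A held the 5 genes with the highest means and 5 others: WBGene00023842, WBGene00029268, WBGene00025328, WBGene00041124 and WBGene00027021. As a percentage of each gene's own mean over the 12 libraries, its median was 90.7, 98.0 and 92.0% at day 1, 132, 124 and 125% at day 3, 108, 109 and 109% at day 6 and 58.8, 66.5 and 70.2% at day 9. All 3 day 9 libraries were the lowest and all 3 day 3 libraries the highest. The group took a mean of 6.71 ± 0.181% of all counts at day 1, 11.9 ± 1.11% at day 3, 9.69 ± 1.31% at day 6 and 3.80 ± 0.194% at day 9 (SD over 3 libraries).

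Group B was low at day 1 and higher at days 3 and 6, and at day 9 its libraries split. Its median was 62.2, 63.4 and 60.9% of each gene's own mean at day 1, 111, 115 and 113% at day 3, 115, 115 and 119% at day 6 and 162, 76.1 and 63.5% at day 9. Replicate 1 of day 9 was the highest of the 12 libraries, while replicate 2 of day 9 lay between the day 1 libraries and those of days 3 and 6 and replicate 3 lay next to the day 1 libraries. The group's share of all counts at day 9 was 7.38, 3.60 and 3.19% in the 3 libraries. WBGene00037808, one of its members, had 570.4, 609 and 560.0 CPM at day 1, 1396, 1548 and 1389.6 CPM at day 3, 1821, 1974 and 1998 CPM at day 6 and 6317, 1800.2 and 1629 CPM at day 9. WBGene00030265, another, had 1222, 1119.6 and 1153 CPM at day 1, 3189, 2905 and 2904 CPM at day 3, 2415, 2239 and 2627 CPM at day 6 and 3232, 1624 and 1235 CPM at day 9.

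Group C, the largest, was high at day 1. Its median was 109.9, 121 and 113% of each gene's own mean at day 1, 82.6, 91.4 and 101% at day 3, 88.1, 93.6 and 87.2% at day 6 and 78.8, 106 and 119% at day 9, so that replicates 2 and 3 of day 9 lay near the day 1 libraries and replicate 1 lay below every other library. The group took 13.5 ± 0.562% of all counts at day 1, 8.98 ± 0.756% at day 3, 8.58 ± 0.272% at day 6 and 10.3 ± 2.49% at day 9 (SD over 3 libraries), and the last was 7.52% in replicate 1 and 11.1% and 12.3% in replicates 2 and 3. Of its 61 genes, 48 had a ratio of the highest to the lowest library of at most 2, and 7 had one over 10.

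**Figure D3:**
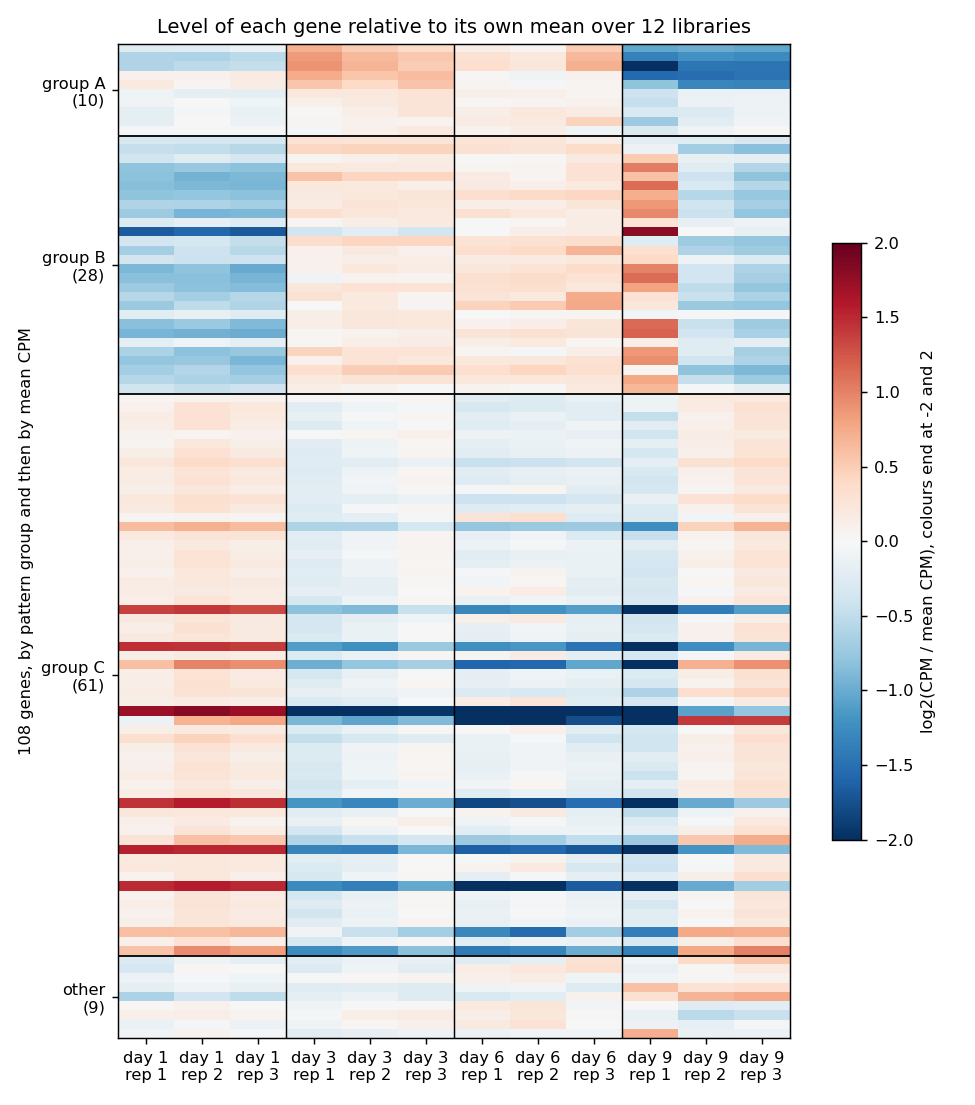
Each line of the map is 1 of the 108 genes, each column 1 library, and the colour is log2 of CPM over the gene's mean of the 12 libraries (red higher, blue lower, colours ending at -2 and 2). Group B is blue at day 1 and darkest red in day 9 replicate 1, where group C is below its mean.

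Within group C, 5 members reached a day mean of 1000 CPM at day 1 only: WBGene00030914, WBGene00026263, WBGene00039133, WBGene00037040 and WBGene00036227. They are in the set through their day 1 level, so a difference from day 1 follows from the choice and is given without a test. WBGene00026263 had 4781, 5089.8 and 4720.3 CPM at day 1, 208, 185 and 369.7 CPM at day 3, 117, 127 and 144 CPM at day 6 and 41.5, 686 and 842 CPM at day 9. Its day 3 mean was 5.23% of its day 1 mean, its day 6 mean was 2.66% and its day 9 libraries were at 0.853, 14.1 and 17.3%. WBGene00037040 had 3287, 3243 and 3229 CPM at day 1, 448, 439 and 606 CPM at day 3, 365, 383 and 350.2 CPM at day 6 and 168, 495 and 618 CPM at day 9, and WBGene00036227 had 3086, 3253 and 3106 CPM at day 1, 455, 423 and 540.3 CPM at day 3, 263, 277 and 347 CPM at day 6 and 150.1, 545 and 675 CPM at day 9. For all 5 genes the day 9 mean lay between 10.8% and 14.8% of the day 1 mean, and replicate 1 was the lowest of the 3 day 9 libraries.

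A different course was seen in WBGene00038900, which had 1331, 2333 and 2450.5 CPM at day 1, 768, 692 and 779.9 CPM at day 3, 355, 334 and 421 CPM at day 6 and 195, 3821 and 3814 CPM at day 9. Replicates 2 and 3 of day 9 were close to each other, and replicate 1 was 19.6 times lower than the highest of them. WBGene00026263, with a ratio of 20.3 between the highest and the lowest day 9 library, and WBGene00038900 had the widest spread of all members within a day 9 group. The edgeR log2 fold change of WBGene00038900 at day 9 against day 6 was 2.61 (adjusted p = 0.0224), but the days overlapped and the value was -1.02 with replicate 1 as the only day 9 library and 3.14 without it. The edgeR call was lost without any 1 of the other day 9 libraries or of the day 6 libraries (adjusted p between 0.0528 and 0.0757).

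Scaled by TMM and tested with edgeR's quasi-likelihood test over all 15788 genes that passed a filter on low counts, which all 108 members passed, 59 members (54.6%) differed over the 4 days, where 64.6% of all tested genes did. A member was called at a Benjamini-Hochberg adjusted p under 0.05. The count was 39 without day 1 replicate 3 (background 47.5% of tested genes), 39 without day 3 replicate 3 (53.8%), 35 without day 6 replicate 1 (42.7%), 35 without day 6 replicate 2 (42.9%), 72 without day 9 replicate 1 (87.2%) and 87 without day 9 replicate 3 (54.7%). By group, 10 of 10 members of A, 25 of 28 of B, 17 of 61 of C and 7 of the 9 others were called. The groups were formed on these same libraries, so the split of calls by group, here and below, is no test. The share of members called was below that of all tested genes with all 12 libraries, and above it, at 80.6%, without day 9 replicate 3.

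With edgeR, 42 members (38.9%) were higher at day 3 than at day 1, where 28.8% of all tested genes were higher, and 8 members (7.41%) were lower, where 18.8% of all tested genes were lower. All 10 genes of A and all 28 of B were among the 42, and all 8 that fell belonged to C. In CPM, all day 3 libraries were above all day 1 libraries for 39 of the 42, the days overlapped for 2, and for 1, WBGene00036738, all day 3 libraries were below those of day 1. All day 3 libraries were below all day 1 libraries for the 8. The share of all tested genes whose libraries did not overlap was not taken, here or for the later comparisons. Counts without overlap are therefore not read as particular to the members. The largest rise was that of WBGene00030265, with 3189, 2905 and 2904 CPM at day 3 against 1222, 1119.6 and 1153 CPM at day 1 (edgeR log2 fold change 1.65 ± 0.31 SE, adjusted p = 0.00302). WBGene00037808 came next, with 1.60 ± 0.45 (SE, adjusted p = 0.015), also from edgeR, a call that was lost when replicate 3 of day 1 (adjusted p = 0.0504), replicate 2 of day 3 (0.0892), replicate 1 of day 6 (0.0532) or replicate 2 of day 6 (0.0536) was left out. Of the 8, 5 are the members that reached 1000 CPM at day 1 only, for which a fall follows from the choice, so nothing is read from their calls. Among the other 103 members 3 were lower (2.91%). Of these, WBGene00040434 was also high mainly at day 1, with day means of 4387, 1045, 737 and 617 CPM. WBGene00041507 (edgeR log2 fold change -1.57) lies at the edge of the rule, with a mean of 1000.2 CPM. Both may thus be in the set through day 1, so nothing is read from this count.

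Scaling moved these 2 counts. The members that rose include the 3 genes with the most counts, and library totals alone gave 28 higher and 15 lower members, where 13.7% of all tested genes were higher and 25.9% lower. The median log2 fold change of all tested genes was 0.02 with TMM and -0.26 with library totals alone, and that of the members was 0.06 and -0.23. Under all 4 scalings tried, 25 members were higher and 8 lower. Leaving out day 3 replicate 2, day 6 replicate 1 or day 6 replicate 2 gave 12, 19 or 18 higher members (backgrounds 6.17%, 10.5% and 10.6%), and the median of all tested genes was then -0.20 in each case, so the library left out also moved the scaling. Of the 42, 12 were called with every library left out in turn. Leaving out day 6 replicate 2, day 9 replicate 1 or day 9 replicate 3 gave 13, 14 or 16 lower members (backgrounds 21.8%, 30.8% and 25%).

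**Figure D4:**
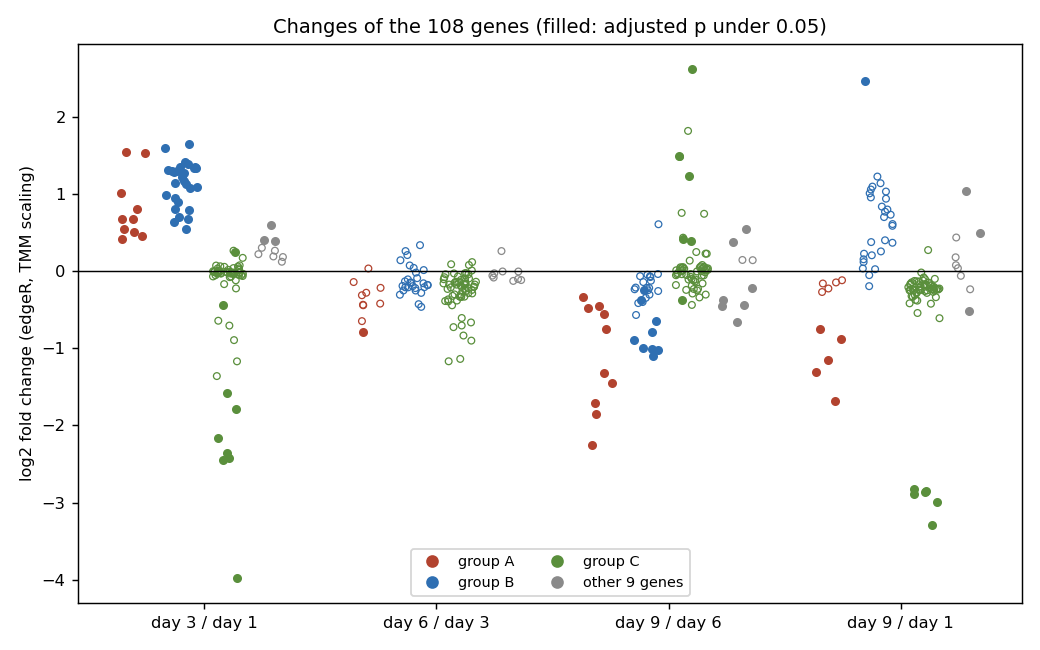
Each point is 1 member, placed by comparison and coloured by group, and the vertical axis is the edgeR log2 fold change with TMM scaling, filled where the adjusted p was under 0.05. At day 3 over day 1 all points of groups A and B are filled and above 0, at day 6 over day 3 only 1 point is filled, and at day 9 over day 6 all points of group A are filled and below 0.

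At day 6 against day 3, 1 member passed the test. No member was higher with edgeR (0 at an unadjusted p under 0.05, 0 with DESeq2 and 0 with limma-voom), where 1.43% of all tested genes were higher. The 1 member called lower was WBGene00034800, where 0.538% of all tested genes fell, and 18 members were lower at an unadjusted p under 0.05. The share of all tested genes at that unadjusted limit was not taken, so the 18 are not read as particular to the members. Scaling also moved the direction: the median log2 fold change of all tested genes was -0.13 with TMM and 0.03 with library totals alone. That of the members was -0.18 and -0.02. The number called lower was 4 without day 6 replicate 3 (background 0.661%). Without day 9 replicate 1, a library of neither day that enters the common estimate of the spread, 2 members were higher (background 6.3%) and 34 lower (background 17.2%).

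At day 9 against day 6, 25 members (23.1%) were lower with edgeR, where 15.5% of all tested genes were lower, and 7 (6.48%) were higher, where 29.3% were. The 25 were all 10 genes of A, 9 of B, 1 of C and 5 others, and the libraries of the 2 days did not overlap for 18 of them. The 7 were 5 genes of C and 2 others, with no overlap for 4. Among the 7, WBGene00041507 (edgeR log2 fold change 1.49, adjusted p = 0.0235) lies at the edge of the rule, with a mean of 1000.2 CPM. It may be in the set through its day 1 and day 9 levels, so nothing is read from its call. The largest falls without overlap were those of WBGene00034777 and WBGene00035047. The largest rise without overlap was that of WBGene00032145, with 1748, 2274 and 2403 CPM at day 9 against 1152, 1216 and 1503 CPM at day 6 (edgeR log2 fold change 0.55 ± 0.15 SE, adjusted p = 0.0169). The next was that of WBGene00040018, with 1994, 2811 and 2961 CPM at day 9 against 1679, 1694 and 1762 CPM at day 6 (edgeR log2 fold change 0.42 ± 0.13 SE, adjusted p = 0.0243). The edgeR call of WBGene00032145 was lost when replicate 1 or 2 of day 6 or replicate 2 of day 9 was left out (adjusted p between 0.0571 and 0.0602), and that of WBGene00040018 without day 6 replicate 1 or 2 or day 9 replicate 2 or 3 (adjusted p between 0.0661 and 0.0882). Without day 9 replicate 1 the log2 fold changes were 0.64 and 0.54.

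Without day 9 replicate 1 the counts at day 9 against day 6 were 46 lower (background 33.7%) and 16 higher (background 42.4%). The number higher was 0 without day 6 replicate 1 (background 9.1%), 0 without day 6 replicate 2 (10.5%), 1 without day 9 replicate 2 (13.9%) and 2 without day 9 replicate 3 (13.7%). When only the libraries of days 6 and 9 were fitted, 4 members, the 4 with the highest mean CPM, were lower (background 0.294%) and 0 higher (background 0.179%), and the calls of WBGene00032145 (edgeR adjusted p = 0.111) and WBGene00040018 (adjusted p = 0.124) were lost. Library totals alone gave 11 higher and 19 lower members, where 35.4% of all tested genes were higher and 8.87% lower, while over all tested genes the median log2 fold change was 0.17 with TMM and 0.34 with library totals alone.

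The overlap of the rise at day 3 with the fall at day 9 was near that of all genes. Of the 42 members higher at day 3 than at day 1, 21 (50.0%) were lower at day 9 than at day 6, and these were 84.0% of the 25. Over all tested genes the overlap was 1847 genes, 40.6% of the 4551 higher at day 3 and 75.6% of the 2443 lower at day 9. The reverse course, lower at day 3 and then higher at day 9, held for 1 of the 8 and 1 of the 7 members (12.5% and 14.3%). That member was WBGene00041507, which lies at the edge of the rule with a mean of 1000.2 CPM and may be in the set through its day 1 and day 9 levels. Over all tested genes the reverse course held for 69.0% of those lower at day 3 and 44.4% of those higher at day 9. These pairs of comparisons share no library but share 1 fit. Of the 8, 5 are in the set through day 1 alone, so their calls are not read. Calls among the 8 also depended on day 9 replicate 1. Without it, WBGene00026263, WBGene00036227 and WBGene00037040, all among the 8, passed at day 9 against day 6. Their edgeR log2 fold changes were then 2.34, 0.82 and 0.39 (adjusted p = 4.65e-05, 0.000704 and 0.0206). None of them passed with all 12 libraries. No difference from all tested genes is therefore read for the reverse course.

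At day 9 against day 1, the ends of the series, 3 members were higher with edgeR (2.78%, where 6.89% of all tested genes were higher) and 12 were lower (11.1%, where 4.7% were lower), with no overlap between the days for any of the 15. The 12 were 5 genes of A, 6 of C and 1 other, and 5 of them are the members that reached 1000 CPM at day 1 only, from whose calls nothing is read. Among the other 103 members 7 were lower (6.80%). These include WBGene00040434, which was also high mainly at day 1, with a mean of 4387 CPM there and 617 CPM at day 9. The number lower was 29 with median-of-ratios scaling (background 7.35%) and 50 with DESeq2 (background 12%). The 5 genes with the highest means were all lower at day 9 than at day 1. WBGene00032145 was higher, with 1748, 2274 and 2403 CPM at day 9 against 916, 1089.5 and 1003 CPM at day 1 (edgeR log2 fold change 1.04 ± 0.15 SE, adjusted p = 0.0023). WBGene00037808 had 6317, 1800.2 and 1629 CPM at day 9 against 570.4, 609 and 560.0 CPM at day 1 (edgeR log2 fold change 2.46 ± 0.46 SE, adjusted p = 0.00833, and 1.48 without day 9 replicate 1). That call was lost when only the libraries of days 9 and 1 were fitted (edgeR adjusted p = 0.118).

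Without day 9 replicate 1, 9 members were higher at day 9 than at day 1 (background 24.3%) and 18 lower (background 19.7%). Without day 9 replicate 3, 13 were higher (background 6.65%) and 44 lower (background 6.87%). The day 9 counts thus depended on which day 9 library was left out.

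The split within day 9 went along with the groups, which were formed with day 9 replicate 1 among the libraries. Relative to the mean of replicates 2 and 3, replicate 1 had a median ratio of 0.882 in A, 2.36 in B and 0.711 in C, and over single members the ratio ran between 0.0510 and 3.68. It was above both other libraries for 27 of 28 genes of B and below both for all 61 genes of C. Replicates 2 and 3 differed from each other by a median ratio of 1.12 and at most 1.35. Set beside the day 1 mean, day 9 replicate 1 had 16 members within 1.25-fold, replicate 2 had 80 and replicate 3 had 89, while day 3 libraries had 20, 47 and 59 and day 6 libraries 41, 54 and 36. These counts were not taken over all tested genes, so they are not read as particular to the members. No label in the sources used here marks day 9 replicate 1 as different, and it had the smallest total count of the 12. The part of depth in the split was not tested.

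**Figure D5:**
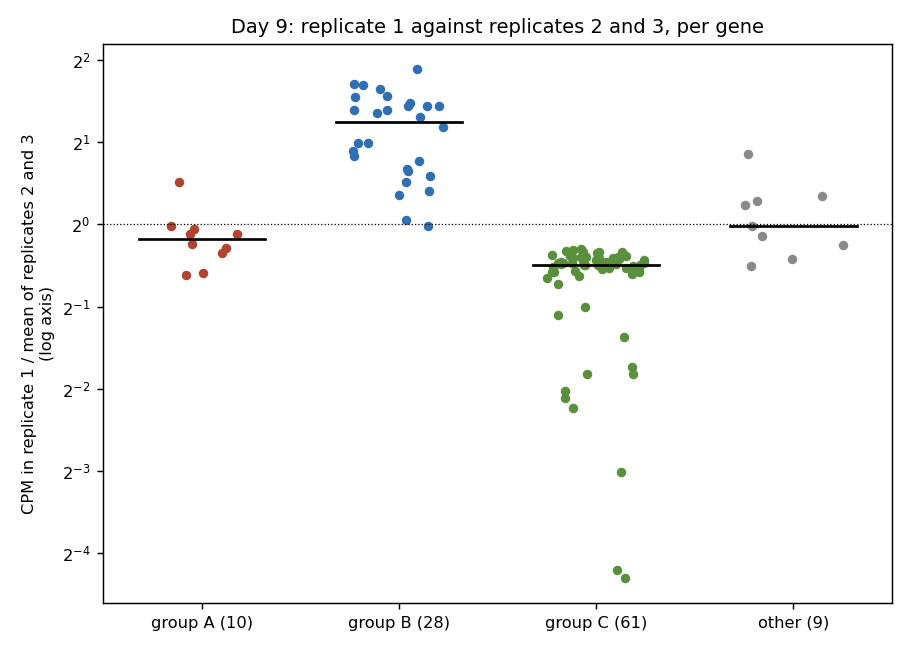
Points are members, by group, and the vertical axis (log scale) is CPM in day 9 replicate 1 over the mean of replicates 2 and 3, with the group's median as a black bar and equality as a dotted line. The medians are 0.882 in A, 2.36 in B and 0.711 in C, and every point of C is below 1.

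The set is chosen on a mean over 4 days, and its membership by day was less fixed. The day mean was at least 1000 CPM on all 4 days for 76 members, on 3 days for 14, on 2 days for 13 and on 1 day for 5, and 61 members were at or above 1000 CPM in every library. By day mean, 127 genes reached 1000 CPM at day 1, 103 at day 3, 106 at day 6 and 114 at day 9, of which 94, 92, 93 and 98 were members. In all, 170 genes reached it on at least 1 day, and 62 of these were not members. Of the 62, 32 had their highest mean at day 1, 9 at day 3, 9 at day 6 and 12 at day 9. Of the members, 58 had their highest mean at day 1, 20 at day 3, 18 at day 6 and 12 at day 9. Among the 76 members at 1000 CPM on all days, edgeR called 28 higher and 1 lower at day 3 against day 1. Of all tested genes, 28.8% were higher and 18.8% lower there. At day 9 against day 6 it called 4 higher and 20 lower (backgrounds 29.3% and 15.5%). At day 9 against day 1 it called 2 higher and 5 lower (backgrounds 6.89% and 4.7%). These 76 were chosen on their levels at the same days, which limits their falls. No difference from the backgrounds is therefore read.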

How the data were processed

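Whole-animal RNA was sequenced in 12 libraries, 3 at each of 4 days. The deposited values are raw read counts per gene, which the authors made with tools that include STAR, featureCounts and MultiQC, per the submitters' processing notes. Tool versions, annotation, strandedness and genome build: not given in the sources used here. CPM was computed from each column total over all 23169 genes. Counts were tested with edgeR 4.0.16 (R 4.3.3): filterByExpr by day (15788 genes kept), TMM factors, a robust quasi-likelihood fit with 4 day means over all 12 libraries (8 residual degrees of freedom), and Benjamini-Hochberg adjustment over all tested genes at 0.05. The standard error (SE) is the absolute log2 fold change over the square root of F. Alternatives were other scalings and filters, DESeq2 1.42.0, limma 3.58.1 (voom), a replicate block, fits on the compared days alone and leaving out libraries.

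The members, lists and tests were chosen with earlier results of these data known. Named genes are the 10 highest means; per comparison, the 2 largest rises and 2 largest falls among called members whose libraries do not overlap; the 2 smallest CVs; the 2 widest day 9 ratios; the 2 genes on each side of 1000 CPM; and each day's highest mean. WBGene00030914 and WBGene00039133, and the other members of group A, were named after their values were seen. Gene lists and marker lists were not used, since no identifier could be paired with a name. No 2 libraries of a day held the same counts within sampling noise: chi-square per degree of freedom was 4.53 to 309.8.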

Additional observations from a re-analysis of the deposited data

How the results depend on the processing

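Each day has 3 libraries, 1 of which stood apart at day 9, and all counts of calls rest on them. With limits of 500 and 2000 CPM the set held 286 and 31 genes, and its share of counts was 38.3% and 12.2% at day 1, 39.5% and 17.9% at day 3, 36.9% and 15.4% at day 6, and 33.0% and 9.95% at day 9. Choosing by the median gave shares of 21.3% at day 1, 27.0% at day 3 and 19.4% at day 9. Leaving out each library in turn gave 103 to 109 members and day 1 shares of 23.2% to 24.7%, day 3 shares of 27.3% to 27.7%, day 6 shares of 24.4% to 25.6% and day 9 shares of 19.9% to 20.6%.

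Counts of called members moved as follows, and the cause was not tested. No shares of all tested genes stand beside the counts in this section. They show only how far the members' calls moved, not how the members compare with other genes. At day 3 against day 1, 24 were higher with no low-count filter. The number lower was 13 with median-of-ratios size factors, 14 with upper-quartile scaling, 15 with library totals, 13 with no filter, 14 with at least 1 CPM in 6 libraries, 14 with DESeq2, 29 with only the days compared and 25 without all day 9 libraries. At day 6 against day 3, 4 were higher with only the days compared and 3 without all day 9 libraries. The number lower was 2 with median-of-ratios or upper-quartile scaling, 5 with DESeq2, 3 with limma-voom, 11 with only the days compared and 21 without all day 9 libraries. At day 9 against day 6, 11 were higher with upper-quartile scaling or library totals, 4 with limma-voom and 0 with only the days compared, which left 4 lower. At day 9 against day 1, 29 were lower with median-of-ratios size factors and 50 with DESeq2, and 1 was higher with only the days compared.

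When day 9 was represented by replicate 1 alone, on the assumption that it varies like the other days (a choice made after seeing the data), 47 were lower at day 3 against day 1, 5 higher and 17 lower at day 6 against day 3, 18 higher and 41 lower at day 9 against day 6, 28 higher and 70 lower at day 9 against day 1, and 105 differed over the days. Among the 76 members at 1000 CPM on all days, 1 was lower at day 3 against day 1, 4 were higher at day 9 against day 6, 5 were lower at day 9 against day 1 and 35 differed over the days.

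Leaving out each library in turn gave 12 to 46 higher and 6 to 16 lower at day 3 against day 1, 0 to 2 and 1 to 34 at day 6 against day 3, 0 to 16 and 17 to 46 at day 9 against day 6, 2 to 13 and 10 to 44 at day 9 against day 1, and 35 to 87 over the days. The log2 fold change of WBGene00036738 at day 3 against day 1 reversed with upper-quartile scaling (-0.039), library totals (-0.043), no filter (-0.014) and at least 1 CPM in 6 libraries (-0.0047), and with the lone day 9 replicate 1 those of WBGene00038900 (-1.02) and WBGene00041507 (-0.21) at day 9 against day 6 reversed.

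The labels do not say that replicate numbers pair libraries across days. Correlations of the deviations of same-numbered libraries were 0.17 to 0.37 for number 1, -0.37 to 0.08 for number 2 and 0.05 to 0.46 for number 3, so not every pair deviated together: 10 of 18 were over 0.1. A library correlated best with its own number in 20 of 36 cases, a hint from the data and not from the design. With the replicate number as a block, 42 members were higher and 9 lower at day 3 against day 1, 0 and 1 at day 6 against day 3, 7 and 25 at day 9 against day 6 and 3 and 12 at day 9 against day 1, and 58 differed over the days.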
